A study of Homo sapiens with 6 samples.

Results

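The mRNAs of D-type cyclins, their kinase partners CDK4 and CDK6, and the retinoblastoma protein family were measured in SH-SY5Y cells. These are an established line from a human neuroblastoma. Protein levels and phosphorylation were not measured, for the reported miR-137 targets as for the other genes. The genes described are *CCND1*, *CCND2*, *CCND3*, *CDK4*, *CDK6*, *RB1*, *RBL1*, *RBL2*, *CDKN2C* and *E2F6*. Every probe set that the platform annotation ties to exactly 1 of these symbols was taken. That gave 32 of the 49393 probe sets on the array, for 9 of the 10 genes listed and of 18244 genes on the array; no expression value of *CDKN2C*, which encodes the INK4 inhibitor p18, was analysed here. *CDK6* and *E2F6* are reported targets of miR-137. The tested cells were transfected with 15 pM of an anti-miR that inhibits miR-137, and the control cells with a negative-control anti-miR at the same amount. RNA was taken 72 hours later. Each treatment had 3 arrays, numbered 1 to 3 in both, and nothing in the sources used here says that these were separate cultures. The p-values therefore rest on an array-to-array spread that may be technical.

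In the G1 phase, D cyclins bind CDK4 or CDK6 and phosphorylate RB1 and its relatives p107 (*RBL1*) and p130 (*RBL2*). The unphosphorylated pocket proteins hold E2F transcription factors, and their phosphorylation releases genes for DNA replication. INK4 proteins such as p18 block CDK4 and CDK6, and E2F6 is a repressor of the E2F family that acts without pocket proteins, within a Polycomb complex. In neuroblastoma this axis is known for high cyclin D1 and for sensitivity to CDK4 and CDK6 inhibitors.

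The mature form of miR-137 is shown because *CDK6* and *E2F6* are reported as its targets. It is taken from RefSeq (GRCh38.p14, chr1:98046091-98046113, minus strand), with the seed, bases 2 to 8, in capitals.
hsa-miR-137-3p: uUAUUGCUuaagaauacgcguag
A target mRNA pairs with the seed through the letters AGCAAUA. Whether the member mRNAs carry them was not analysed here.

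Values are log2 probe set values after RMA (robust multi-array average), so 1 unit is a doubling, and levels of different probe sets are not comparable. Array medians lay between 6.39 and 6.43 and RNA integrity numbers between 9.5 and 9.8. Probe sets with a mean under 5.69, the 40th percentile, were left out of the tests. Of the 32 member probe sets, 23 passed, for 8 genes. The 9 that did not had means between 3.74 and 5.35. All 11 noradrenergic neuroblastoma markers on the array passed the filter. Their mean log2 value lay between 12.52 and 12.61 in anti-miR-137 arrays and between 12.54 and 12.65 in control arrays. Of 12 mesenchymal neuroblastoma markers, 9 passed too, so passing the filter does not check the label of the cells.

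No member passed the test for a difference between the treatments. In limma, 0 of the 23 tested probe sets had an adjusted p under 0.05 over all 27514 tested probe sets (0% of all), with an adjusted p of 1.00 for each. Before adjustment, p was under 0.05 for 1 of the 23, against 2.49% of all. Inhibition of miR-137 went with higher values on 10 of the 23 and lower values on 13, while 49.3% of all tested probe sets were higher. The median log2 fold change was -0.014 over the members and -0.0015 over all tested probe sets. For 18 of the 23, the 95% confidence interval lay within 0.5 log2 units of 0. The number of arrays limits this precision. Treatment was the only term of this fit, so spread between replicate numbers also stayed in its standard errors.

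*CCND1*, cyclin D1, measured 11.04, 11.23 and 11.67 on its brightest probe set in anti-miR-137 arrays 1 to 3, and 11.03, 11.44 and 11.65 in control arrays 1 to 3. The groups overlapped throughout, and in each the replicate 3 array was the highest and the replicate 1 array the lowest. The log2 fold change was -0.059 (standard error 0.20, 95% confidence interval -0.52 to 0.40, adjusted p = 1.00 in limma). The other 3 probe sets had -0.09 to -0.20, so all 4 were lower with miR-137 inhibited. These differences came mainly from replicate 2. There the 4 probe sets differed by -0.20 to -0.53, and the brightest differed by 0.0066 within replicate 1 and 0.022 within replicate 3. The sign of the brightest turned with RNA integrity as a covariate (0.13), and also when either anti-miR-137 replicate 1 (0.079) or control replicate 3 (0.078) was left out.

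*CCND2*, cyclin D2, gave no tested value: its 3 probe sets ranged from 3.51 to 4.61 over all 6 arrays, below the filter. On 1 of the 3 the groups did not overlap, with 4.45, 4.30 and 4.34 in anti-miR-137 arrays and 4.11, 4.22 and 4.21 in control arrays. Among tested probe sets, all above the filter, this held for 6.9%. The share among probe sets below the filter was not analysed. *CCND3*, cyclin D3, had 1 probe set that passed and 1 that did not. The first measured 7.65, 7.57 and 7.86 in anti-miR-137 arrays and 7.46, 7.50 and 7.69 in control arrays. Array by array of the same number, the treated value was higher by 0.19, 0.068 and 0.16, but the groups overlapped. The log2 fold change was 0.14 (95% confidence interval -0.09 to 0.37).

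*CDK4*, the kinase partner of D cyclins that is shared by most tissues, measured 11.44, 11.53 and 11.69 in anti-miR-137 arrays and 11.47, 11.47 and 11.56 in control arrays. Its 4 probe sets had log2 fold changes of 0.030 to 0.068, all higher in anti-miR-137 cells and all with intervals that included 0. The brightest, with 0.054 (-0.14 to 0.25), carries a suffix that marks possible cross-hybridisation, and its sign turned without anti-miR-137 replicate 3 (-0.014).

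*CDK6*, the other kinase partner and a reported miR-137 target, measured 12.85, 12.79 and 12.57 in anti-miR-137 arrays and 12.83, 12.78 and 12.64 in control arrays. The values of the treatments lay within 0.067 of each other in every replicate number. The log2 fold change was -0.014 (95% confidence interval -0.23 to 0.21). The sign of this value depended on the setting: it was 0.00040 with array weights and ran from -0.071 to 0.069 with an array left out. The other 3 probe sets had -0.20, -0.052 and 0.047. The upper bounds of the intervals were 0.21, 0.15 and 0.17 log2 units on the 3 brightest and 0.47 on the dimmest, 11723242_at, whose mean of 5.82 was just above the filter.

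*RB1*, which encodes the retinoblastoma protein, measured 8.75, 8.78 and 8.87 in anti-miR-137 arrays and 8.67, 8.71 and 8.85 in control arrays. The log2 fold change was 0.056 (-0.12 to 0.23). Its second probe set, 11749112_a_at, measured 7.15, 7.36 and 7.72 against 7.01, 7.46 and 7.62 in control arrays, a log2 fold change of 0.049 (-0.39 to 0.49). The groups overlapped on both. *RBL1*, p107, measured 6.23, 6.44 and 6.24 in anti-miR-137 arrays and 6.19, 6.28 and 6.46 in control arrays. Its log2 fold change was -0.0069 (-0.23 to 0.22), with a sign that turned with array weights (0.045), with the RNA integrity covariate (0.030) and with some left-out arrays (-0.076 to 0.069).

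*RBL2*, p130, had probe sets on both sides of 0 for treatment, as *CDK6* and *E2F6* did. The brightest measured 9.43, 9.14 and 9.03 in anti-miR-137 arrays and 9.42, 9.42 and 9.24 in control arrays, a log2 fold change of -0.16 (-0.43 to 0.10). The probe set 11748255_a_at measured 5.84, 5.97 and 5.77 in anti-miR-137 arrays and 5.73, 5.61 and 5.59 in control arrays. It was the only 1 of the 23 whose groups did not overlap, against 6.9% of all tested probe sets. Its log2 fold change was 0.22 with a standard error of 0.079 (unadjusted p = 0.027, adjusted p = 1.00, limma). Its mean of 5.75 was just above the filter, and its correlations with the other tested *RBL2* probe sets over the 6 arrays were -0.88 and -0.32.

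*E2F6*, the repressor and reported miR-137 target, measured 9.13, 9.16 and 9.26 in anti-miR-137 arrays and 9.19, 9.23 and 9.36 in control arrays. Between arrays of the same number the treated value differed by -0.053, -0.064 and -0.10, and the groups overlapped. The log2 fold change was -0.074 (95% confidence interval -0.25 to 0.10). The other 3 tested probe sets had -0.084, -0.048 and 0.023. The brightest and 2 others carry suffixes for possible cross-hybridisation, and the 1 tested without such a suffix, 11729233_a_at, had -0.084 (-0.36 to 0.19).

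**Figure D1:**
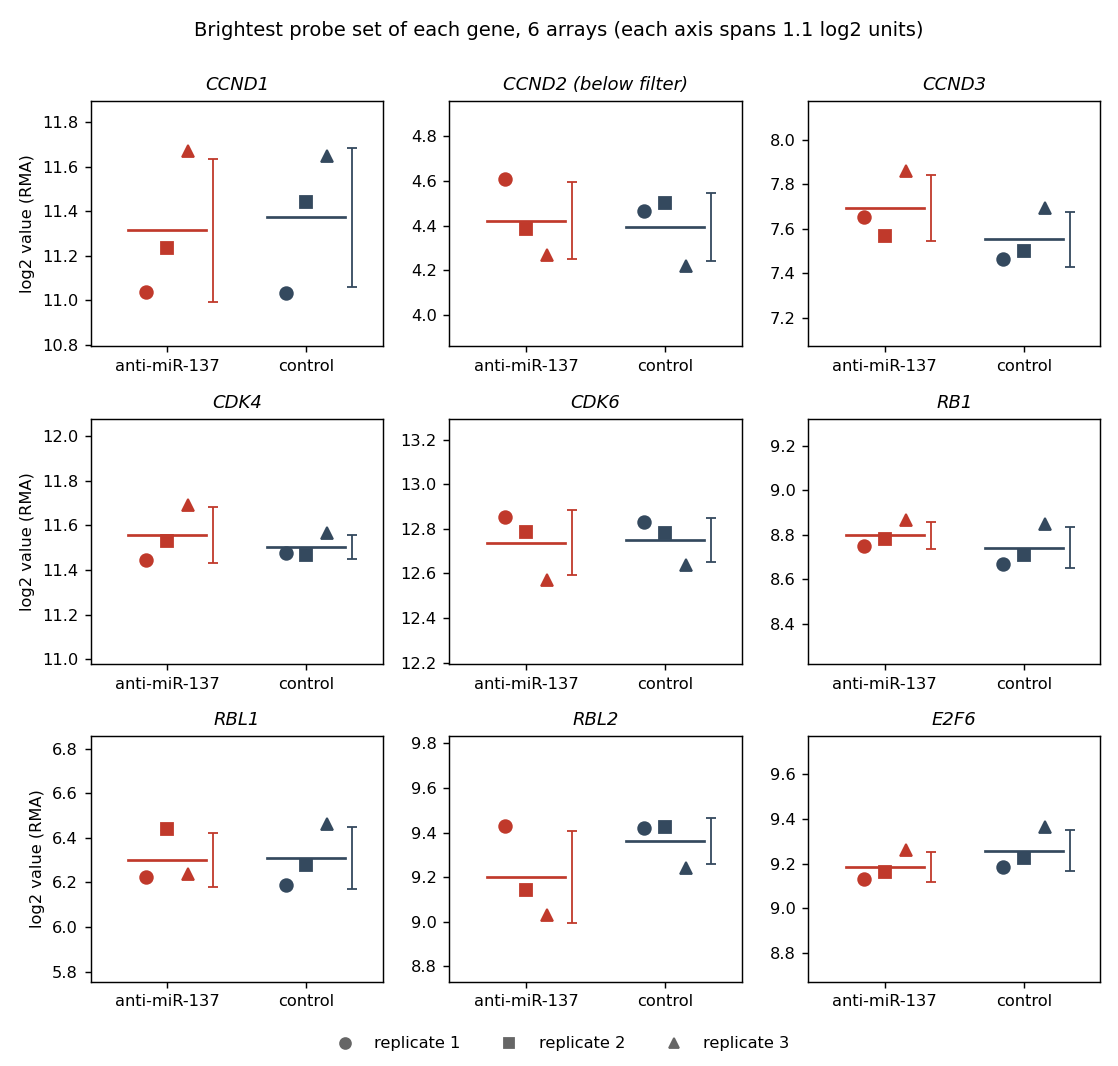
Log2 values of the brightest probe set of 9 genes in anti-miR-137 (red, left) and control (dark, right) arrays; symbols mark the replicate number, horizontal lines the group means and bars the SD (n = 3 each). The groups overlap in every panel, and for *CCND1* both replicate 3 arrays (11.67 and 11.65) lie above both replicate 1 arrays (11.04 and 11.03).

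**Figure D2:**
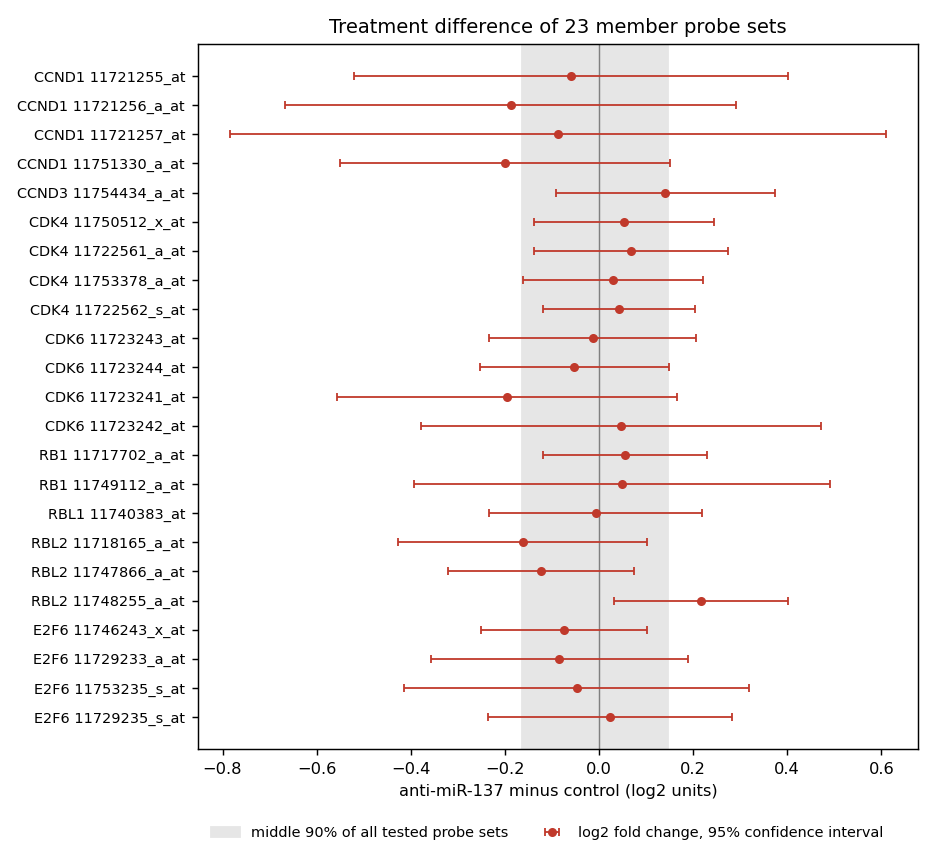
Log2 fold change, anti-miR-137 minus control, with its 95% confidence interval for the 23 tested member probe sets; the grey band holds the middle 90% of all tested probe sets (-0.16 to 0.15). Of the 23 intervals, 22 include 0; that of *RBL2* 11748255_a_at runs from 0.033 to 0.40.

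More of the spread lay between replicate numbers than between treatments for 81.4% of all tested probe sets. This held for 21 of the 23 member probe sets, which come from 8 genes and are not independent of each other. Over the 23 tested probe sets, a median of 74.2% of the sum of squares over the 6 arrays lay between replicate numbers and 10.4% between treatments. Over all 27514 tested probe sets the medians were 57.2% and 8.67%. The 3 numbers can take up more of the spread than the 2 treatments by construction. With treatment kept as a term, limma's F test for replicate number called 0 of the 23 members at an adjusted p under 0.05 and 3 of all 27514 probe sets (0.0109%). At an unadjusted p under 0.05 it reached 10 of 23 members and 21.6% of all.

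The direct comparison of replicate 3 with replicate 1, adjusted on its own, called 3 of the 23, against 5.44% of all tested probe sets. All 3 rose in replicate 3, against 3.51% of all called in that direction, and 0 fell, against 1.94% of all. *CCND1* averaged 11.66 in the replicate 3 arrays and 11.04 in the replicate 1 arrays on its brightest probe set, with 11.34 in replicate 2. The difference was 0.62 with a standard error of 0.083 (adjusted p = 0.028, limma). It was 0.63 within anti-miR-137 arrays and 0.61 within control arrays. On *CCND1* 11721257_at the difference was 0.96 (standard error 0.11, adjusted p = 0.025), and the other 2 probe sets had 0.58 and 0.34 and did not pass. *RB1* 11749112_a_at averaged 7.67 in replicate 3 and 7.08 in replicate 1, a difference of 0.59 (standard error 0.084, adjusted p = 0.030). The brightest *RB1* probe set differed by 0.15 (adjusted p = 0.22).

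These calls rested on few arrays, while the size of the difference on the brightest *CCND1* probe set changed little. It was 0.61 with RNA integrity as a covariate, 0.62 without the filter and 0.56 to 0.68 with an array left out. None of the 23 was called with any 1 of the replicate 1 or replicate 3 arrays left out, which leaves 1 array for that number, nor with RNA integrity as a covariate or without the filter. Over the whole array, 0 probe sets were called in each of these settings except the last, which called 3. Of the 23 members, 8 were called when either of the replicate 2 arrays was left out, against 11% of all tested probe sets, and 11 when the variance prior followed the mean level, against 15.6% of all.

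*CDK6*, *CDK4* and *E2F6* did not pass, and the tested probe sets of each lay on 1 side of 0. All 4 *CDK6* probe sets had lower values in replicate 3 than in replicate 1, by -0.19 to -0.37. On the brightest, the replicate 3 arrays measured 12.57 and 12.64 and the replicate 1 arrays 12.85 and 12.83, a difference of -0.24 (adjusted p = 0.10, limma). It passed with the stricter filter (adjusted p = 0.044, limma). With a variance trend, the brightest probe sets of *CDK6* (adjusted p = 0.0037), *CDK4* (0.046) and *RBL2* (0.032) passed. All 4 *CDK4* probe sets were higher in replicate 3, by 0.10 to 0.21. All 4 of *E2F6* were higher too, by 0.15 to 0.42, and the single tested *CCND3* probe set by 0.22. *RBL2* had -0.29, 0.058 and -0.10. The sign of the difference was the same in both treatments for 21 of the 23, against 72.5% of all tested probe sets. Replicate 2 against replicate 1 called 0 members and 0% of all, and replicate 3 against replicate 2 called 0 members and 0.00363% of all.

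**Figure D3:**
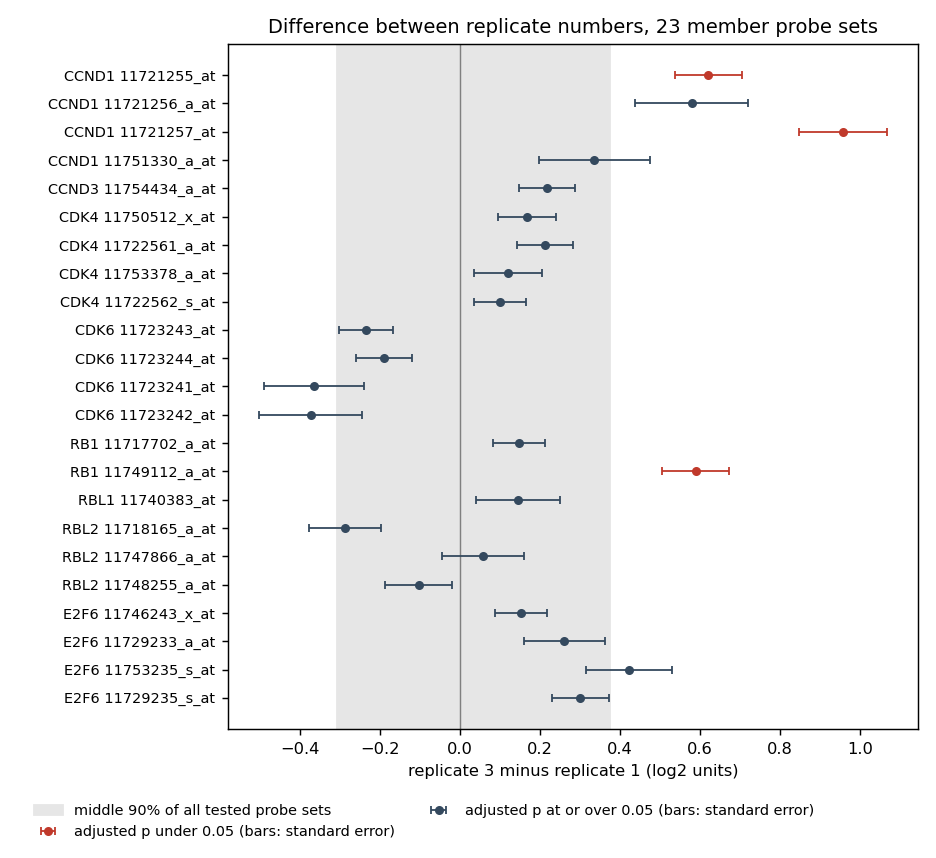
Log2 difference, replicate 3 minus replicate 1, with its standard error for the 23 tested member probe sets; the grey band holds the middle 90% of all tested probe sets (-0.31 to 0.38). The 3 red points passed an adjusted p under 0.05: *CCND1* 11721255_at (0.62), *CCND1* 11721257_at (0.96) and *RB1* 11749112_a_at (0.59); all 4 *CDK6* points lie below 0.

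Over the 6 arrays, the brightest probe sets of *CDK6* and *RBL2* correlated negatively with those of the other 6 tested members and positively with each other (0.78), and the other 6 correlated positively among themselves. The size of r ran from 0.09 to 0.93 over the 28 pairs, with a median of 0.74, against a median of 0.41 over all pairs of the 12639 tested genes. Pearson's r was -0.925 between *CCND1* and *CDK6*, 0.85 between *CCND1* and *E2F6*, 0.90 between *CCND3* and *RB1*, and -0.92 between *CDK4* and *RBL2*, but 0.41 between *CCND3* and *E2F6*, 0.53 between *CDK4* and *E2F6*, and -0.34 between *RBL2* and *E2F6*. *RBL1* followed none of them closely (r of 0.51 with *RB1* at most in size). These are descriptions over 6 arrays that share 3 replicate numbers. Tested probe sets of 1 gene followed each other for *CCND1* (r between 0.77 and 0.998 over 6 pairs), *CDK4* (0.70 to 0.97) and *E2F6* (0.57 to 0.89). They did so less evenly for *CDK6* (0.29 to 0.86) and not for *RBL2* (-0.88 to 0.43). Probe sets below the filter are left out of these ranges. That of *E2F6*, 11729234_at, had r of -0.17 to 0.24 with the tested ones. Among 6315 other genes with at least the median spread, the 3 most like *CCND1* included *SGO2* (r = 0.996), a protector of centromeric cohesion, and *SLC4A8* (0.995), a bicarbonate transporter. The 3 most like *CDK6* were *DCAF6* (0.995), *RNF44* (0.993) and *HSPB7* (0.993).

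Genes activated by E2F, whose products load and run the replication machinery, lie downstream of the axis. They were listed with earlier results of these data known, so their counts describe the replicate difference and are not independent evidence of it. Whether the mRNA levels of the members bear on these genes was not tested. Of 32 listed genes, 29 were tested by their brightest probe set. For anti-miR-137 against control 0 passed, and 22 had higher and 7 lower values, while 6567 of all 12639 genes were higher. The median log2 fold change was 0.072, against 0.0033 over all genes. *PRIM1* (0.13), *MCM3* (0.14), *RFC4* (0.10) and *CDT1* (0.21) had the smallest unadjusted p. Between replicate 3 and replicate 1, 23 of the 29 rose, against 2.96% of all genes called in that direction, and the other 6 also had higher values without passing. The median difference was 0.55, against -0.012 over all genes. *UHRF1*, a reader of hemimethylated DNA, measured 10.51 and 10.48 in replicate 3 and 9.78 and 9.65 in replicate 1 (each with the treated array before the control array), a difference of 0.78 (adjusted p = 0.024, limma). The GINS helicase subunits *GINS3* (0.75) and *GINS2* (0.69) and the thymidine kinase *TK1* (0.72) followed. As for the members, 0 E2F target genes were called without the filter, with the RNA integrity covariate, or with a replicate 1 or replicate 3 array left out.

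Among CDK inhibitors, cyclin E and cyclin A partners, and E2F factors, 0 genes passed for anti-miR-137 against control (0% of all genes). Of the CDK inhibitors, 5 of 6 were tested and all 5 were lower with miR-137 inhibited (-0.057 to -0.21), as were 6072 of all 12639 genes. Of these inhibitors, 0 had an unadjusted p under 0.05 in limma. *CDKN1C*, p57, had -0.21 and *CDKN1B*, p27, had -0.089. *CDKN2A*, the locus of the INK4 inhibitor p16 and of ARF, measured 8.34 and 8.51 in replicate 3 and 8.80 and 8.82 in replicate 1. The difference was -0.38 (adjusted p = 0.047, limma), while 2.41% of all genes were called lower. Its replicate 2 arrays were lower still, at 8.23 and 8.25, so replicate 1 was the highest and replicate 3 not the lowest. *CDKN2B* was below the filter. Of 10 genes of cyclin E, cyclin A and CDK2, 3 rose in replicate 3, against 2.96% of all genes called in that direction: the phosphatase *CDC25A* (0.73), *CCNE2* (0.58) and *CCNA2* (0.45), the last chosen after its value was seen. *CCNE1*, cyclin E1, had 0.32 and did not pass, and it and *MNAT1* (0.11 each) had the smallest p for treatment. Of 9 E2F and DP factors, the atypical repressors *E2F7* (0.59) and *E2F8* (0.52) rose in replicate 3, against the same 2.96% of all genes. For treatment *E2F2* (0.11) and *TFDP2* (0.063) led. The probe sets of *CDKN1B*, *CDKN1C*, *CDC25A*, *CCNE1*, *E2F2* and *E2F8* carry suffixes for possible cross-hybridisation.

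None of the other lists tied to the axis held a call in either comparison. Of all 12639 genes, 0 were called for treatment and 679 between replicate 3 and replicate 1. A count of 0 in lists this short is near that share. In the MuvB core with B-MYB, 6 genes were tested, and *LIN9* (0.41) and *MYBL2* (0.24) had the smallest p for replicate number and *LIN54* (-0.081) and *RBBP4* (-0.065) for treatment. Among 12 tested partners of E2F6 in its Polycomb complex, *YAF2* (0.33) and *PCGF6* (0.32) led for replicate 3 over replicate 1, and *HDAC1* (-0.083) and *EHMT2* (0.092) for treatment. Of 7 genes of D cyclin turnover, *FBXW8* (-0.34) and *CUL4B* (-0.23) led for replicate 3 over replicate 1. *AMBRA1*, the substrate receptor that marks D cyclins for degradation, had -0.12 for treatment (unadjusted p = 0.10, adjusted p = 1.00, limma), and *FBXO4* had 0.11.

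Cell identity markers moved with the replicate number in part. Of 12 mesenchymal neuroblastoma markers, 9 were tested, and their mean log2 value was 8.64 and 8.72 in replicate 3, 8.71 and 8.69 in replicate 2, and 8.92 and 8.85 in replicate 1 (treated array before control array). Of the 9, *YAP1* (-0.65) and *VIM*, vimentin (-0.40), fell in replicate 3, against 2.41% of all genes called lower. The other 7 did not pass, and among them *SNAI2* (0.38) and *TWIST1* (0.029) had higher values in replicate 3, *SNAI2* being named after its value was seen. *PRRX1*, *CD44* and *COL1A2* were below the filter. Of 11 noradrenergic markers 0 were called in either comparison. Of all 12639 genes, 0 were called for treatment and 679 between replicate 3 and replicate 1. *CHGB* (-0.27) and *ISL1* (-0.16) had the smallest p for replicate number, and *PHOX2A* (-0.10) and *DBH* (-0.090) for treatment. On the mesenchymal list *NOTCH3* (0.17) and *TWIST1* (-0.074) led for treatment. The part of these markers in the replicate difference of the members was not tested. In bulk RNA, fewer cells of a kind and less RNA per cell cannot be told apart.

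**Figure D4:**
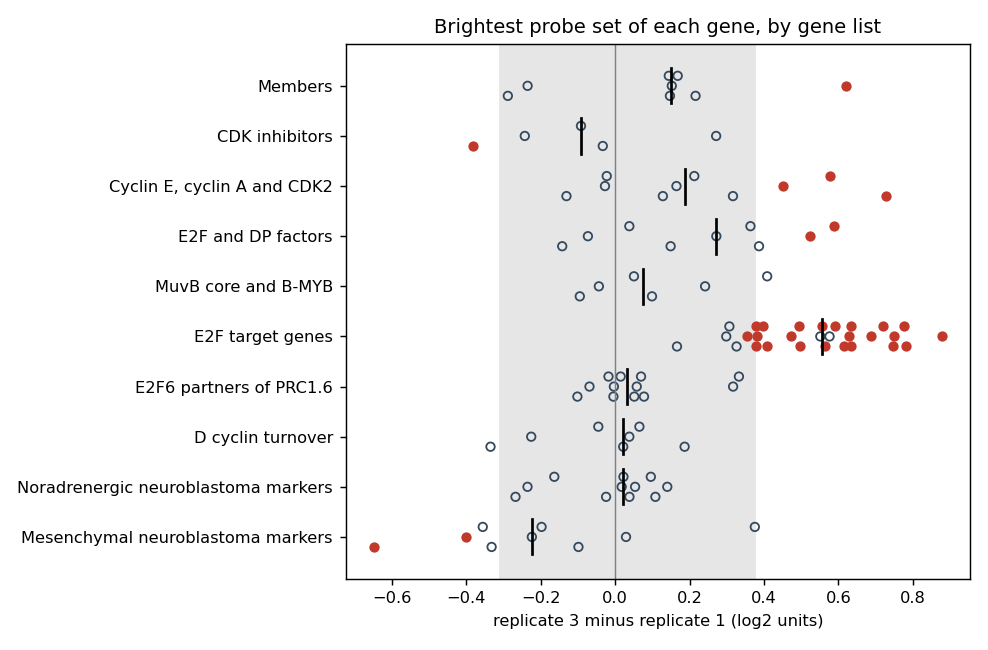
Log2 difference, replicate 3 minus replicate 1, of the brightest probe set of each tested gene, for the members and 9 gene lists; filled red points have an adjusted p under 0.05, open points do not, vertical bars are list medians, the vertical offset of points only separates them, and the grey band holds the middle 90% of all tested probe sets. All 29 E2F target genes lie above 0, with a median of 0.55.

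Because E2F target genes differed between the numbers, promoter windows from RefSeq (GRCh38.p14, 250 bases before to 50 after a start) were searched for E2F words on both strands: TTTCCCGC, TTTGGCGC, TTTCGCGC and TTTGCCGC, where matches on the 2 strands may overlap. Windows were matched for 8 of the 10 members, *CDKN2C* among them, and not for *CCND1* and *CCND2*. The *RB1* window lies 172 kb inside the annotated gene, so it is not that of the gene's first start. At least 1 word was found in 12.5% of these genes, 57.1% of the 28 matched E2F target genes and 3.99% of all 27305 genes. The 1 member was *RBL1*, with 2 words 26 and 16 bases before its start. It is printed beside *UHRF1*, *GINS2* and *CDT1*, 3 of the E2F target genes named above that hold a word wholly upstream, each with the words in capitals. The coordinates are chr20:37095998-37096037 (minus strand), chr19:4909463-4909500 (plus strand), chr16:85688955-85689009 (minus strand) and chr16:88803730-88803785 (plus strand).
RBL1: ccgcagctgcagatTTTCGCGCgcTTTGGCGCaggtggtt
UHRF1: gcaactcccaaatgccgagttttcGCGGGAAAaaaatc
GINS2: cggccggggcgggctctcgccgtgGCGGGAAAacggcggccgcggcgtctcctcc
CDT1: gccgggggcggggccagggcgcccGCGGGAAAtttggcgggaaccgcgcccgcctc
In the last 3 the word lies on the opposite strand. *UHRF1*, *GINS2* and *CDT1* rose in replicate 3 by 0.78, 0.69 and 0.75. *MCM3*, not printed, also holds a word wholly upstream and rose by 0.41. *GINS3*, whose word reaches past its start, rose by 0.75. *TK1* and *PRIM1* hold no word and rose by 0.72 and 0.38, and *RFC4*, also without a word, had 0.30 and did not pass. The tested *RBL1* probe set had 0.14 (adjusted p = 0.42, limma), and without control replicate 3 it had -0.017. A second *RBL1* probe set, 11738630_a_at, was below the filter, with 5.87 and 5.49 in the replicate 3 arrays and 5.06 and 5.03 in the replicate 1 arrays. A match is a description of these letters and not evidence of binding. The E2F target genes were listed as genes that E2F activates, so a high share of words among them was likely from the start. Whether the words bear on the replicate difference was not tested.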

How the data were processed

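The authors deposited 1 log2 value for each probe set and array (1-colour), made with RMA in R 3.0.1, per the submitters' processing notes; RMA corrects background, makes array distributions alike and summarises probes, so a shift of all transcripts could not be seen. Of 49495 probe sets, 102 controls were dropped, and 45278 had 1 gene symbol, 1333 several and 2782 none. The gene identifiers of 45208 were found in the RefSeq table of GRCh38.p14, which changed 0 symbols. Probe sets with 1 symbol and a mean at or above the 40th percentile of all (5.69) were tested (27514).

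limma 3.58.1 in R 4.3.3 (lmFit, eBayes, two-sided, Benjamini-Hochberg over all tested probe sets, threshold 0.05) compared anti-miR-137 with control, group as the only term, and replicate numbers with group kept as a term. Genes of lists are represented by their brightest probe set, and some of these carry suffixes for possible cross-hybridisation. Members and lists were chosen with earlier results of these data known. Named were all members, the 2 genes per list (4 for E2F targets) with the smallest p in each comparison, and the 3 genes most correlated with *CCND1* and with *CDK6*. 1 of these is not reported here. Scripts were tested on simulated data. No arrays held identical values.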

Additional observations from a re-analysis of the deposited data

How the results depend on the processing

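For anti-miR-137 against control, 0 members and 0 of all probe sets passed under every alternative run, including no filter, a stricter filter, 1 probe set per gene, no probe sets with cross-hybridisation suffixes, added quantile, median or cyclic loess normalization, a variance trend, array weights, the RNA integrity covariate and each left-out array. With the replicate number as a block the counts were also 0. As a check of pairing, deviations from the group means correlated at 0.52 between the replicate 1 arrays and 0.62 between the replicate 3 arrays. Anti-miR-137 replicate 3 had -0.61 with control replicate 1, and anti-miR-137 replicate 1 had -0.49 with control replicate 3. Numbers 1 and 3 were thus alike across the treatments. The replicate 2 arrays had 0.040, and anti-miR-137 replicate 2 was closer to control replicate 1 (0.17) than to its own number. The main test did not take the numbers as pairs, whereas the run with a block did. Fold changes that changed sign, none of them called, were *CCND1* (0.13 with the RNA integrity covariate; -0.24 to 0.079 with an array left out), *CDK4* (-0.014 to 0.11), *CDK6* (0.00040 with array weights; -0.071 to 0.069) and *RBL1* (0.045 with array weights, 0.030 with the RNA integrity covariate; -0.076 to 0.069); the replicate difference of *RBL1* ran from -0.017 to 0.31.

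Counts between replicate numbers depended on the setting, and the cause was not tested. The number of probe sets tested also changed with the filter, with 1 probe set per gene and without suffixed probe sets. Counts under those settings cannot be set directly against the main ones. The F test called 0 members and 3 probe sets in all; it called 3 and 1735 with the stricter filter, 1 and 320 with 1 probe set per gene, 7 and 3128 with a variance trend, 3 and 663 with array weights, and 3 and 598 with replicate number as the only term. It called 96 in all without suffixed probe sets, 0 in all without the filter or with the RNA integrity covariate, and 0 to 4 members and 0 to 1392 in all with an array left out. Replicate 3 against replicate 1 called 3 members, 1498 in all (5.44% of all tested) and 23 E2F target genes. It called 0, 3 and 0 without the filter, and 0, 0 and 0 with the RNA integrity covariate. Members and all were 11 and 4295 (15.6% of all tested) with a variance trend, and 5 and 2693 (9.79%) with array weights. With fewer probe sets tested, they were 7 and 2967 under the stricter filter and 1 and 1040 with 1 probe set per gene. With an array left out, 0 to 8 members, 0 to 3031 in all and 0 to 25 E2F target genes were called. Signal near background limits *CCND2* and the dim probe sets of *RBL1* and *RB1*.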
